A study of Mus musculus with 20 samples.

Results

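The transcriptomes of 4 MMTV-cre;Ctsd-/- PyMT mammary tumors were compared with those of 4 control PyMT tumors, which are 8 of the 20 samples of the series; the other 12 are tumor cell cultures. Tumors were chosen by their titles, Ctsd-KO or WT, and replicates are numbered 1 to 4 within each genotype as in the labels. All mice carried the PyMT oncogene (polyomavirus middle T antigen) under the MMTV promoter, were kept on a C57BL/6N background and were 18 weeks old when tumors were taken. By ultrasound, the study found smaller tumors in MMTV-cre;Ctsd-/- mice than in controls at this age. The sizes of the sequenced tumors are not given in the sources used here, so genotype and tumor size cannot be told apart. In MMTV-cre;Ctsd-/- mice, cre recombinase is driven by the same MMTV promoter and deletes the targeted exon of the floxed Ctsd gene in mammary epithelium. In reporter mice the study saw recombination in this epithelium but not in the surrounding fat. It considers it probable that CTSD protein left in the tumors comes from stromal cells outside the epithelium. The labels call the controls wild type; according to the methods of the study, CTSD-competent mice carried untargeted or floxed Ctsd alleles, and which of these each control carried is not given in the sources used here. A code in the sample descriptions also differs between the genotypes, with 1 code for all controls and another for all MMTV-cre;Ctsd-/- tumors, so that whatever this code stands for and the genotype cannot be told apart.

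Cathepsin D (CTSD) is an aspartic protease of lysosomes, the acidic compartment in which proteins and organelles are degraded. A PyMT tumor is a tissue in which luminal-type cancer cells lie among myoepithelial cells, mammary fat, blood and lymph vessels, fibroblasts and immune cells, and RNA of the whole piece measures all of them together. Fat cells store triglycerides and release hormones such as adiponectin and leptin, while secretory epithelia release milk proteins, mucosal proteins and antimicrobial peptides. In such bulk samples a larger number of cells of a type and more RNA per cell cannot be told apart.

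Between 49725437 and 64291587 reads per tumor were counted on genes, and control tumor 4 had the fewest. The share of reads set aside as overlapping several genes was 7.11% to 15.6% and was highest in control tumors 3 and 4. On the first principal component of log2 CPM (counts scaled to a common library size), which held 34.4% of the variance, control tumor 4 lay farthest to one side, and MMTV-cre;Ctsd-/- tumors 3 and 4 lay farthest to the other. Skeletal muscle genes stood out in the same control tumor: the mean log2 CPM of 17 tested muscle genes was 4.66 there and 3.36 in MMTV-cre;Ctsd-/- tumor 1, against -0.55 to 1.27 in the other 6 tumors. The luminal markers Krt8 and Krt18 had at least 1033 CPM in every tumor, so the tissue carried the epithelial markers its label implies. Ctsd had 1860, 2617, 1781 and 2532 CPM in control tumors 1 to 4 and 797, 360.2, 1295 and 1233 CPM in MMTV-cre;Ctsd-/- tumors 1 to 4, with no overlap. Counts are per gene, so transcripts lacking the targeted exon cannot be told apart from intact ones.

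A gene was called higher or lower at an unadjusted p below 0.1 in edgeR's two-sided quasi-likelihood test, the threshold of the study for tumors. Of 18617 genes tested, 8.44% were called higher in MMTV-cre;Ctsd-/- tumors than in controls and 8.27% were called lower, and these shares are the background for every count below. After Benjamini-Hochberg adjustment 0.00537% of the genes, 1 gene (nonagouti), had an adjusted p below 0.05. No value below other than that of nonagouti passes this stricter threshold, and "rose" and "fell" refer to the unadjusted call. In 2.26% of all genes every MMTV-cre;Ctsd-/- tumor lay above every control tumor, and in 1.89% every one lay below. The median log2 fold change (FC) of all genes was 0.00073, with quartiles of -0.31 and 0.30.

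The compartments of the tissue differed in how many of their genes were called. Over 25 lists of marker genes with 450 tested members, 111 were higher and 20 lower. Fat stood out in the count, with 45 of 60 members higher and 0 lower. Of the vascular members 23 of 61 were higher and 4 lower, of the immune members 21 of 134 and 5, and of the epithelial members 9 of 84 and 2. Of the 21 immune members that were higher, 8 were interferon response genes and 7 were B and plasma cell genes. The interferon list is not limited to immune cells, since 19 of its 34 genes had at least 1 CPM in all 3 samples of Ctsd+/+ tumor cells cultured in 1% FCS. Of the secretory products 8 of 40 were lower and 4 higher. Fibroblast and matrix genes had 4 of 28 members higher and 0 lower.

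**Figure D1:**
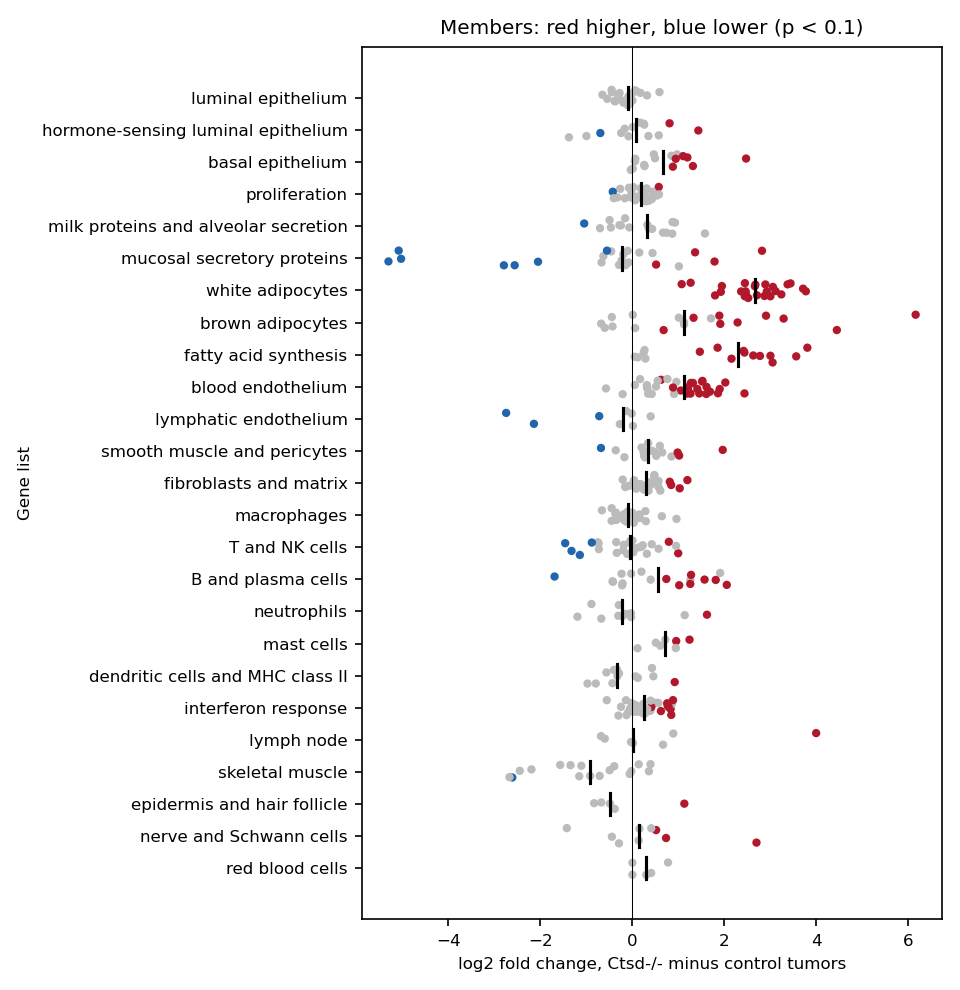
log2 fold change (x axis, MMTV-cre;Ctsd-/- minus control tumors, 4 tumors each) of every tested member of 25 gene lists (y axis), with members called higher in red, lower in blue and neither in grey, and the list median as a black bar. All 25 white adipocyte genes lie to the right of 0, while luminal epithelium and macrophage genes lie around 0 with no call.

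White adipocyte genes rose throughout: 25 of 25 were higher, with a median log2 FC of 2.68 and a range from 1.08 to 3.78. Adipoq, which encodes the fat hormone adiponectin, had 42.8, 136, 24.0 and 231 CPM in control tumors 1 to 4 and 398, 158, 732 and 1080 CPM in MMTV-cre;Ctsd-/- tumors 1 to 4. The MMTV-cre;Ctsd-/- tumor with the least, replicate 2, lay below the control tumor with the most. Its log2 FC was 2.45 (SE 0.751, adjusted p = 0.465). Lipe, the hormone-sensitive lipase that releases fatty acids from stored fat, had 28.2, 69.8, 15.4 and 25.7 CPM in controls and 83.2, 78.5, 441 and 558 CPM in MMTV-cre;Ctsd-/- tumors (log2 FC 3.06, SE 0.729, adjusted p = 0.365). Here the groups did not overlap, and replicates 3 and 4 of MMTV-cre;Ctsd-/- were far above replicates 1 and 2. Lep, which encodes leptin, had the highest log2 FC of the list (3.78, SE 0.914, adjusted p = 0.369), with 3.18 to 6.67 CPM in controls and 6.47, 11.0, 70.8 and 171 CPM in MMTV-cre;Ctsd-/- tumors. The glycerol channel gene Aqp7 (3.72, SE 0.738) and the triglyceride synthesis gene Dgat2 (3.44, SE 0.714) also rose. For 11 of the 25 genes the groups did not overlap.

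The mean log2 CPM of the white adipocyte list was 4.10 to 6.07 in control tumors and 6.30 to 9.21 in MMTV-cre;Ctsd-/- tumors, in the order of replicates 2, 1, 3 and 4 from low to high. The lowest MMTV-cre;Ctsd-/- tumor (6.30) lay above the highest control (6.07) by less than the SD of the 4 controls, 0.935. The rise was thus large on average and unevenly spread over the tumors, as the map of list levels by tumor shows. When the list was counted without MMTV-cre;Ctsd-/- tumor 4, 23 of 25 genes were higher with a median log2 FC of 2.08, and with each of the other tumors left out 25 of 25 were higher.

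**Figure D2:**
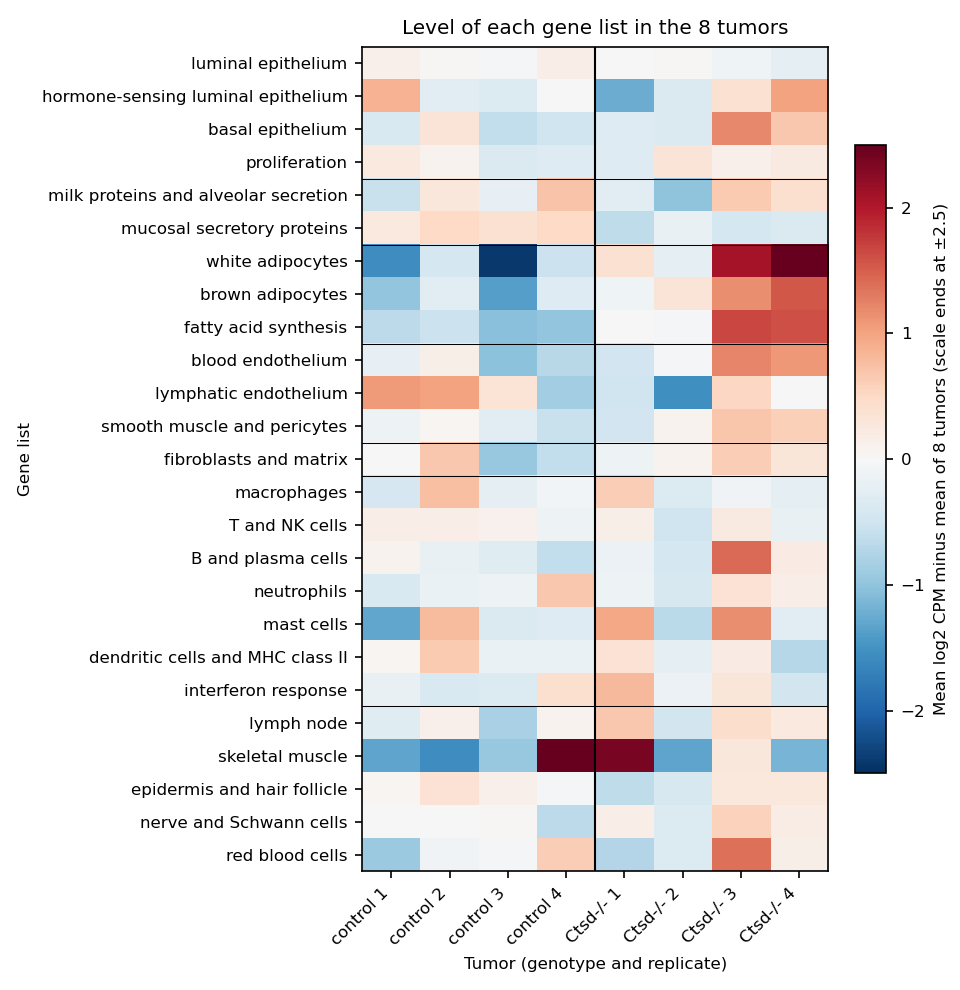
Level of 25 gene lists (rows, grouped by compartment) in the 8 tumors (columns), as the mean log2 CPM of the list minus its mean over the 8 tumors, from blue (low) to red (high). MMTV-cre;Ctsd-/- tumors 3 and 4 are the reddest for white adipocytes, fatty acid synthesis, blood endothelium and basal epithelium, and skeletal muscle stands out in control tumor 4 and MMTV-cre;Ctsd-/- tumor 1.

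Brown adipocytes burn fat to make heat and share many genes with white adipocytes. Of 19 tested brown adipocyte genes of 22 listed, 9 rose and 0 fell, with a median log2 FC of 1.13. Ucp1, the uncoupling protein that makes brown fat produce heat, had 0, 0.185, 0.0166 and 0.152 CPM in control tumors and 0.486, 10.9, 8.30 and 5.34 CPM in MMTV-cre;Ctsd-/- tumors (log2 FC 6.17, SE 1.14, adjusted p = 0.292). Unlike the white adipocyte genes, it was highest in MMTV-cre;Ctsd-/- tumor 2 and lowest in tumor 1. The potassium channel gene Kcnk3 (4.45, SE 0.950), the fatty acid elongase gene Elovl3 (3.29, SE 1.26) and the coactivator gene Ppargc1a (1.33, SE 0.414) also had all MMTV-cre;Ctsd-/- tumors above all controls. Other genes of the brown fat list were not called, among them Dio2 (-0.68) and Cox7a1 (-0.43).

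Fatty acid synthesis turns citrate and acetate into saturated and monounsaturated fatty acids, both in fat cells and in mammary epithelium. Of 16 genes 11 rose and 0 fell, with a median log2 FC of 2.29, and for 9 the groups did not overlap. Fasn, the fatty acid synthase, had 259, 264, 141 and 139.6 CPM in control tumors and 578, 711, 3877 and 4354 CPM in MMTV-cre;Ctsd-/- tumors (log2 FC 3.57, SE 0.687, adjusted p = 0.292). Scd1, which introduces a double bond into fatty acids, had 716 to 1319 CPM in controls and 2441, 1386, 12352 and 11784 CPM in MMTV-cre;Ctsd-/- tumors (2.78, SE 0.663, adjusted p = 0.365). In both genes every MMTV-cre;Ctsd-/- tumor lay above every control, and replicates 3 and 4 lay far above the rest. Acaca, the acetyl-CoA carboxylase that precedes Fasn (3.01, SE 0.645), the elongase gene Elovl6 (2.63, SE 0.516) and the lipase gene Pnpla3 (3.81, SE 0.875) were also highest in replicates 3 and 4. Srebf1, which encodes the transcription factor SREBP1, had 297 to 721 CPM in controls and 402 to 924 CPM in MMTV-cre;Ctsd-/- tumors and was not called (0.12, SE 0.347), and neither were Scd2, Elovl5, Fads1 and Fads2, which lay between 0.05 and 0.29.

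These genes are not markers of fat alone. In cultured Ctsd+/+ PyMT tumor cells kept for 10 days in 1% FCS, 13 of the 16 fatty acid synthesis genes had at least 1 CPM in all 3 samples, against 6 of the 25 white adipocyte genes and 3 of the 22 listed brown adipocyte genes. Fasn had a mean of 2177 CPM and Adipoq 0 CPM in these cells. Whether the rise came from epithelium or from fat was not tested.

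The promoters of this set are shown because 11 of its 16 members rose. RefSeq promoter sequences were matched for 13 of the 16 genes, and the 250 bases before each start site were searched on both strands. CCAAT, the box bound by NF-Y, was present before 9 of the 13 genes and before 37.5% of all 27025 genes in the table. CACGTG, an E-box, was present before 3 of the 13 and 6.86% of all, and TCACNCCAC, a sterol regulatory element, before 1 of the 13 and 1.22% of all. A match is a description of the sequence, not a measured site. In 3 of the genes that rose without overlap, capitals mark CCAAT or its reverse complement ATTGG, and in Fasn the run CCAATTGG holds a match on each strand.
Fasn (GRCm38.p6, chr11:120824548-120824797, minus strand): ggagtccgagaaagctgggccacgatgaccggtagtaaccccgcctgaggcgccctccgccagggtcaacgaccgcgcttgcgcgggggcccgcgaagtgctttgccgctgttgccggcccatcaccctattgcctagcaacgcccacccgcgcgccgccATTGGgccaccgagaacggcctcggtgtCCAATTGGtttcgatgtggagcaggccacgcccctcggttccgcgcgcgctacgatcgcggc
Acacb (GRCm38.p6, chr5:114165268-114165517, plus strand): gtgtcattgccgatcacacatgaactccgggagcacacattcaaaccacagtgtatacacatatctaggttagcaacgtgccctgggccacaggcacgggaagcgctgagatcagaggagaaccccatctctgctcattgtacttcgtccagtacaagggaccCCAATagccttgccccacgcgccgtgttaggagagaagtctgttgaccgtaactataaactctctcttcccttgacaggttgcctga
Pnpla3 (GRCm38.p6, chr15:84167566-84167815, plus strand): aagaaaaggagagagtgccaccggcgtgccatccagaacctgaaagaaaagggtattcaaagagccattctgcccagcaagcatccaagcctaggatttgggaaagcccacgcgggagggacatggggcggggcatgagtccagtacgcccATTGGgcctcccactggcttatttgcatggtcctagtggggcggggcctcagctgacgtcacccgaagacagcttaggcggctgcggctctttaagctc
In these sequences the match farthest upstream starts 90 bases before the start site in Fasn, 87 in Acacb and 99 in Pnpla3. The 3 genes had log2 FC of 3.57, 3.05 and 3.81, while Srebf1, for which 2 of 3 promoters hold CCAAT, was not called. Elovl5 also holds CCAAT and was not called. Acaca (3.01), Elovl6 (2.63) and Acly (1.47) rose without a match to any of the 3 motifs, and Fads2 had no match and was not called. The sequences searched for Acaca (from 84195188 on chromosome 11) and Acacb lie inside the annotated genes. The annotated starts of these genes are 84129672 on chromosome 11 and 114146535 on chromosome 5. Sequence before those starts was not searched, so the presence or absence of a match holds only for the RefSeq start used. A link between matches and the rise was not tested.

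**Figure D3:**
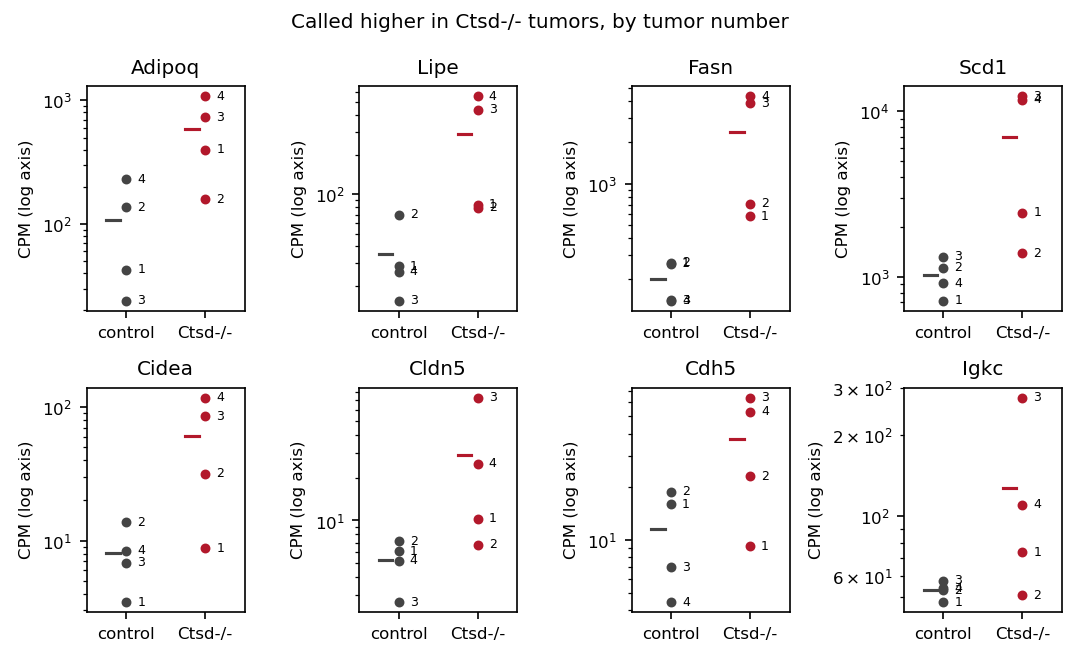
CPM of 8 genes called higher in MMTV-cre;Ctsd-/- tumors (log y axes), with 1 point per tumor, the replicate number beside it and the mean of 4 as a bar at the left of the points. In the MMTV-cre;Ctsd-/- group replicates 3 and 4 are highest in each gene shown, and in Lipe, Fasn and Scd1 no point of one group reaches into the other.

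Many blood vessel genes also rose. Of 34 blood endothelial genes 20 were higher and 0 lower, with a median log2 FC of 1.12, but for 0 of the 34 did the groups separate completely. Cdh5, the cadherin that joins endothelial cells, had 4.44 to 18.8 CPM in control tumors and 9.19, 23.0, 63.8 and 53.1 CPM in MMTV-cre;Ctsd-/- tumors (log2 FC 1.69, SE 0.613, adjusted p = 0.543). Cldn5, a tight junction gene of endothelium, had 2.67 to 7.13 CPM in controls and 10.3, 6.78, 72.8 and 25.1 CPM in MMTV-cre;Ctsd-/- tumors (2.44, SE 0.684, adjusted p = 0.416). In both genes MMTV-cre;Ctsd-/- tumors 3 and 4 were above every control, and at least 1 of tumors 1 and 2 lay within the control range. Pecam1 (1.28), Robo4 (2.02), Nos3 (1.90) and Gpihbp1, which holds lipoprotein lipase on capillaries (1.53), rose as well. Without MMTV-cre;Ctsd-/- tumor 3 the number of blood endothelial genes higher was 12.

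On the lymphatic endothelium list 3 of 8 genes were lower and 0 higher, with a median log2 FC of -0.20. Ccl21a, a chemokine of lymphatic vessels and lymph nodes, had 39.1, 35.9, 29.0 and 4.41 CPM in control tumors and 6.01, 0.0922, 9.36 and 0.714 CPM in MMTV-cre;Ctsd-/- tumors (log2 FC -2.74, SE 1.08, adjusted p = 0.544). Control tumor 4 lay within the MMTV-cre;Ctsd-/- range, and the other 3 controls lay above it. Pdpn, which encodes podoplanin, fell by 0.72 (SE 0.215, adjusted p = 0.457), from 48.4 to 70.0 CPM in controls to 27.6 to 43.3 CPM in MMTV-cre;Ctsd-/- tumors without overlap, and Mmrn1 fell by 2.14 (SE 1.04). The defining genes Prox1 (-0.27), Lyve1 (-0.13) and Flt4 (-0.01) were not called, and Pdpn also had a mean of 46.0 CPM in the cultured tumor cells. Reads of Ccl21a may be divided among near-identical Ccl21 copies in the mouse genome, so its level is uncertain.

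Among pericyte and smooth muscle genes 3 of 19 were higher and 1 lower. Cspg4, the NG2 proteoglycan of pericytes, rose by 1.97 (SE 0.610), with 4.41 to 10.9 CPM in controls and 6.76 to 59.5 CPM in MMTV-cre;Ctsd-/- tumors, highest in replicates 3 and 4, and the potassium channel gene Kcnj8 fell by 0.68 (SE 0.344). The number of these genes higher was 7 without MMTV-cre;Ctsd-/- tumor 1, 5 without control tumor 1, 2 without MMTV-cre;Ctsd-/- tumor 3 and 8 without both tumors with skeletal muscle genes. Of 28 fibroblast and matrix genes Pdgfra (0.82), Twist2 (1.20), Dpt (1.03) and Prrx1 (0.85) rose. The collagen gene Col1a1 had 132 to 953 CPM in controls and 405 to 903 CPM in MMTV-cre;Ctsd-/- tumors, with a log2 FC of 0.40 (SE 0.543) and no call. Without control tumor 2 the number of fibroblast and matrix genes higher was 14, without control tumor 3 it was 0, and without either of MMTV-cre;Ctsd-/- tumors 3 and 4 it was 1.

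The epithelium itself showed few differences in its luminal genes. None of 24 luminal genes was called, with a median log2 FC of -0.088 and a range from -0.65 (Krt19) to 0.59 (Muc1). The mean log2 CPM of this list averaged 7.72 ± 0.0844 for controls and 7.57 ± 0.117 for MMTV-cre;Ctsd-/- (SD, n = 4 each), and the ranges overlapped. Among hormone-sensing genes the transcription factor gene Tbx3 (1.44, SE 0.597) and the prolactin receptor gene Prlr (0.81, SE 0.389) rose and Prom1 (-0.69, SE 0.305) fell, while the estrogen receptor gene Esr1 (0.35, SE 0.501) and the progesterone receptor gene Pgr (-0.08, SE 0.697) were not called. Of 30 proliferation genes only Plk1 rose (0.58, SE 0.301) and only Tyms fell (-0.42, SE 0.185), and Mki67 had 31.6 to 100.4 CPM in controls and 50.3 to 141 CPM in MMTV-cre;Ctsd-/- tumors. Without control tumor 1 the number of proliferation genes higher was 8, without MMTV-cre;Ctsd-/- tumor 1 it was 7, and without either of control tumors 3 and 4 or of MMTV-cre;Ctsd-/- tumors 2 and 4 it was 0. Of the hormone-sensing genes 0 were higher without MMTV-cre;Ctsd-/- tumor 4, and 1 was without either of control tumors 2 and 3. Among the luminal genes 3 were lower without MMTV-cre;Ctsd-/- tumor 1 and 2 without tumor 2.

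Of 16 basal epithelial genes, those of the myoepithelial layer, 6 were higher and 0 lower, with a median log2 FC of 0.67. Krt15 had 9.71, 5.53, 9.25 and 7.48 CPM in control tumors and 9.95, 4.55, 125 and 38.6 CPM in MMTV-cre;Ctsd-/- tumors (log2 FC 2.48, SE 0.839, adjusted p = 0.514). Only replicates 3 and 4 lay well above the controls, and replicate 2 lay below them. Krt17 (1.32), the Notch ligand gene Jag2 (1.20), the laminin gene Lama3 (1.11) and Col17a1 (0.95) rose in the same way. The defining genes Krt5 (0.98, SE 0.740), Krt14 (0.27, SE 0.565) and Trp63 (-0.03, SE 0.355) were not called. Leaving out MMTV-cre;Ctsd-/- tumor 3 left 1 basal gene higher, leaving out tumor 4, control tumor 3 or control tumor 4 left 2, and leaving out control tumor 1 left 3.

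Secretory products of the epithelium changed in both directions. Of 23 tested mucosal secretory genes of 29 listed, 7 fell and 4 rose, with a median log2 FC of -0.23. Agr2, a protein disulfide isomerase needed for mucin folding, had 1.79, 32.5, 10.5 and 33.5 CPM in control tumors and 0.456, 0.999, 0.225 and 0.714 CPM in MMTV-cre;Ctsd-/- tumors. The groups did not overlap although the controls spanned a wide range (log2 FC -5.03, SE 0.874, adjusted p = 0.292). Scgb2b27, a secretoglobin, had 159, 259, 472 and 1292 CPM in control tumors and 146, 50.6, 112 and 61.9 CPM in MMTV-cre;Ctsd-/- tumors (-2.56, SE 0.633, adjusted p = 0.381). Its paralogs Scgb2b26 (-5.08, SE 0.939) and Scgb2b24 (-5.30, SE 1.12) fell too, and since these genes are close copies on chromosome 7 the assignment of reads among them is uncertain. Scgb2b24 was low throughout, with 0.332 to 3.73 CPM in controls and 0 to 0.138 CPM in MMTV-cre;Ctsd-/- tumors. The chloride channel regulator gene Clca1 (-2.05), the airway protein gene Bpifa1 (-2.79) and Spdef, a transcription factor of secretory cells (-0.55), also fell. Bpifa1 was barely detected, with 1.22, 0.309, 0.216 and 0 CPM in control tumors and 0 to 0.215 CPM in MMTV-cre;Ctsd-/- tumors, which overlap.

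The mean log2 CPM of the mucosal list averaged 4.47 ± 0.124 for controls and 3.66 ± 0.191 for MMTV-cre;Ctsd-/- (SD, n = 4 each), without overlap. Only 4 members lay fully below the controls, namely Agr2, Scgb2b24, Scgb2b26 and Scgb2b27, and 12 of 23 were not called. These 4 fell by 2.56 to 5.30 against a list median of -0.23, so they weigh heavily in the list mean. Of the genes that rose, 3 were high mainly in 1 tumor. Fcgbp, a mucin-like IgG-binding protein, had 42.6, 23.9, 23.8 and 6.54 CPM in controls and 13.0, 70.1, 547 and 55.3 CPM in MMTV-cre;Ctsd-/- tumors, and the value of replicate 3 carried its log2 FC of 2.82 (SE 1.00, adjusted p = 0.532). Bpifb1 (1.79) was high in MMTV-cre;Ctsd-/- tumor 2 alone at 42.2 CPM, and Clca2 (1.37) in tumor 1 alone at 12.2 CPM. Pigr, the receptor that carries IgA into secretions, had 70.5 to 141 CPM in controls and 93.6 to 185 CPM in MMTV-cre;Ctsd-/- tumors (0.52, SE 0.285). Leaving out MMTV-cre;Ctsd-/- tumor 2 moved the median of the list to -0.50, and without either of control tumors 3 and 4 the number of mucosal genes higher was 1; it was 2 without control tumor 1 or without MMTV-cre;Ctsd-/- tumor 1 or 2.

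Milk protein genes varied widely within both genotypes. Of 17 tested genes 1 fell and 0 rose. Csn2, which encodes beta-casein, ranged from 3.12 to 104 CPM in controls and from 0.553 to 280 CPM in MMTV-cre;Ctsd-/- tumors, and Lalba from 670 to 3216 and from 425 to 3386 CPM. Wfdc18, a secreted protease inhibitor family member, was the gene that fell (-1.04, SE 0.478, adjusted p = 0.562), with 6082 to 19725 CPM in controls and 3175 to 8957 CPM in MMTV-cre;Ctsd-/- tumors, which overlap.

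**Figure D4:**
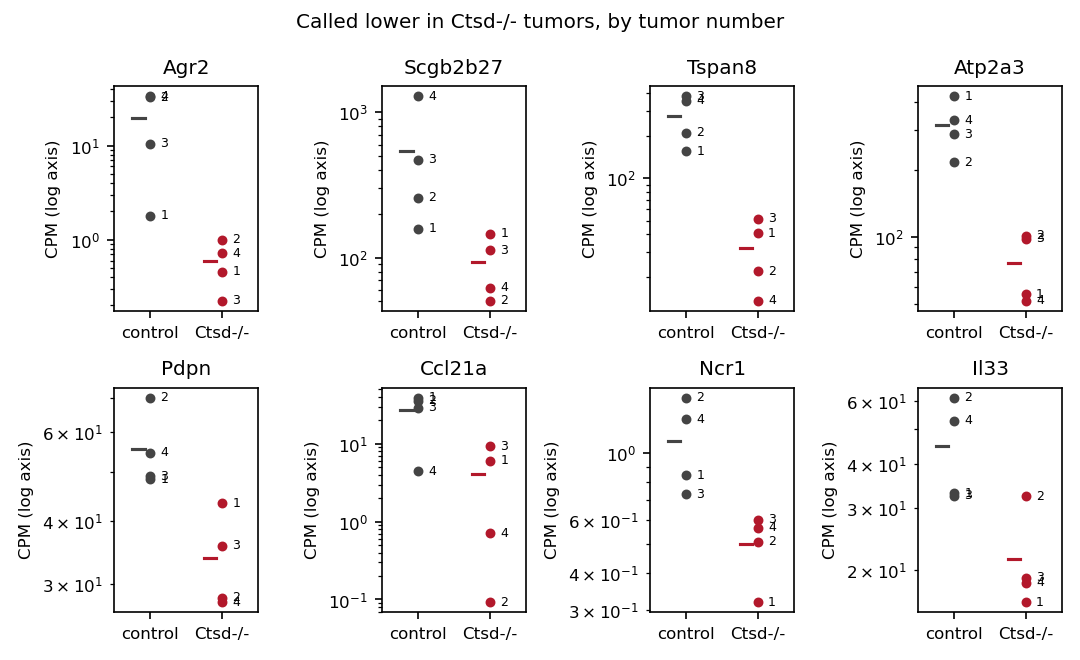
CPM of 8 genes called lower in MMTV-cre;Ctsd-/- tumors (log y axes), with 1 point per tumor, the replicate number beside it and the mean of 4 as a bar at the left of the points. All points of MMTV-cre;Ctsd-/- lie below all control points for 7 of the genes, and for Ccl21a control tumor 4 lies among them.

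Immune cell genes gave a mixed picture. Of 23 macrophage genes 0 were called, with a median log2 FC of -0.098, and Adgre1, which encodes the F4/80 antigen, had 15.6 to 44.9 CPM in controls and 18.6 to 33.9 CPM in MMTV-cre;Ctsd-/- tumors. Of 27 T and NK cell genes 4 fell and 2 rose. Without MMTV-cre;Ctsd-/- tumor 1, 5 macrophage genes were lower (median -0.37), and without control tumor 2, 4 were higher (median 0.14). Of the T and NK cell genes that fell, Ncr1, an activating receptor of NK cells, did so without overlap (-1.14, SE 0.421, adjusted p = 0.544). Ncr1 had 0.844, 1.53, 0.729 and 1.29 CPM in controls and 0.319, 0.507, 0.599 and 0.564 CPM in MMTV-cre;Ctsd-/- tumors. The granzyme genes Gzma (-1.32, SE 0.548) and Gzmb (-0.88, SE 0.418) and the perforin gene Prf1 (-1.46, SE 0.701) fell with overlap. Other NK and cytotoxic genes of this list, among them Nkg7, Klrd1, Klrb1c, Eomes and Tbx21, were not called. The T cell receptor genes Cd247 (1.00, SE 0.375) and Trac (0.80, SE 0.356) rose, a share of 7.41% of the list, near the 8.44% of all genes called higher. Cd3e (0.23) and Cd8a (0.01) were not called, and neither were the receptor genes Cd3d, Cd3g, Trbc1 and Trbc2. Cd8a had 1.08 to 2.70 CPM over all 8 tumors. Without either of MMTV-cre;Ctsd-/- tumors 2 and 4 the number of T and NK cell genes lower was 2.

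Several immunoglobulin genes rose. Of 18 B and plasma cell genes 7 were higher and 1 lower. Igkc, the kappa light chain constant gene, had 48.0, 53.2, 57.6 and 54.2 CPM in control tumors and 73.5, 51.0, 276 and 110.3 CPM in MMTV-cre;Ctsd-/- tumors (log2 FC 1.26, SE 0.451, adjusted p = 0.534). Replicate 3 was highest and replicate 2 lay within the control range. Ighm (1.28), Ighg2b (2.06), Ighg2c (1.82), Igha (1.02) and Jchain (0.74) also rose, as did Cd79a, a subunit of the B cell receptor (1.57, SE 0.777). Pou2af1 fell by 1.69, and the B cell gene Ms4a1 was not called. Without MMTV-cre;Ctsd-/- tumor 3 the number of genes higher was 1, and Ighg2c was then -0.34; without control tumor 4 it was 3, and without control tumor 2 it was 4.

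Of 34 interferon-responsive and antigen presentation genes 8 rose and 0 fell, with a median log2 FC of 0.25. The class I genes among them had high counts: H2-D1 had 2003, 1888, 1382 and 2329 CPM in control tumors and 4105, 2710, 3934 and 2944 CPM in MMTV-cre;Ctsd-/- tumors, without overlap (0.85, SE 0.260, adjusted p = 0.464). H2-K1 (0.79, SE 0.303), B2m (0.76, SE 0.371) and the peptide transporter gene Tap1 (0.62, SE 0.260) rose as well, with overlap. H2-D1 and H2-K1 are close paralogs, so reads that fit both were not counted. The interferon-induced genes Cxcl9, a chemokine gene (0.89, SE 0.387), Oas2 (0.84, SE 0.417) and Gbp4 (0.77, SE 0.393) rose too. The defining interferon genes of the list were not called, with Ifit1 at 0.16 (SE 0.446), Isg15 at -0.55 (SE 0.573) and Cxcl10 at 0.09 (SE 0.413). Without MMTV-cre;Ctsd-/- tumor 1 or control tumor 3 the number of genes higher was 4 or 3, and without control tumor 2 or MMTV-cre;Ctsd-/- tumor 3 it was 5, and without MMTV-cre;Ctsd-/- tumor 1 the median was -0.016. Of 14 dendritic cell and MHC class II genes only Clec9a rose (0.92). Of 11 neutrophil genes only the protease gene Mmp9 rose (1.63). These shares, 7.14% and 9.09%, lie near the 8.44% of all genes called higher, and the list medians were -0.33 and -0.21. Of 7 mast cell genes the protease genes Cpa3 (1.25) and Tpsb2 (0.96) rose. The number of mast cell genes higher was 0 without MMTV-cre;Ctsd-/- tumor 1, 4 without control tumor 2 and 1 without any of control tumors 1, 3 and 4 or MMTV-cre;Ctsd-/- tumor 3.

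Lists of tissues that may be taken along with a tumor were measured beside these results. Of 7 tested lymph node genes Madcam1, an adhesion molecule of lymphoid venules, was higher (4.00, SE 0.998), with 0 to 0.254 CPM in controls and 0.507 to 4.19 CPM in MMTV-cre;Ctsd-/- tumors, and Cxcl13 was -0.68; the node markers Ccl19 and Chst4 had too few counts to be tested, with at most 13 counts in a tumor. Of 9 nerve genes 3 rose, among them the myelin protein genes Pmp22 (0.74, SE 0.372) and Mbp (0.52, SE 0.277). Of 5 tested skin genes, Krt79 of hair follicles rose (1.13), and the skin markers Krt1 and Lor had at most 11 counts in a tumor. None of 5 red blood cell genes was called, and of 17 tested skeletal muscle genes Mylpf was lower (-2.61), with 99.5 CPM in control tumor 4 against 1.57 to 2.22 CPM in the other controls. Without control tumor 4, 8 muscle genes were higher, and without MMTV-cre;Ctsd-/- tumor 1, 8 were lower. Their part in the results above was not tested, and neither was that of mammary fat around the tumors.

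Genes outside the lists also rose by large amounts. Among the 15 protein-coding genes with the highest log2 FC that were called, did not overlap and reached 10 CPM were Slc36a2, an amino acid transporter (3.68, SE 0.703), Nat8l, an N-acetylaspartate synthase (3.80, SE 0.777), Angptl8, a regulator of lipoprotein lipase (3.65, SE 0.837), and the glycogen phosphorylase gene Pygl (3.29, SE 0.680). Slc36a2 had 2.83 to 17.4 CPM in controls and 46.8, 35.3, 140.2 and 212 CPM in MMTV-cre;Ctsd-/- tumors, again highest in replicates 3 and 4. Angptl8 instead was high in replicates 2, 3 and 4, with 2.89, 21.8, 11.1 and 24.2 CPM in MMTV-cre;Ctsd-/- tumors 1 to 4.

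Genes outside the lists fell as well. Tspan8, a tetraspanin of epithelial cell membranes, had 155, 211, 382 and 355 CPM in control tumors and 40.7, 21.8, 51.7 and 13.5 CPM in MMTV-cre;Ctsd-/- tumors (log2 FC -3.11, SE 0.463, adjusted p = 0.163). Atp2a3, which encodes the SERCA3 calcium pump, had 427, 216, 288 and 333 CPM in controls and 55.3, 101, 98.1 and 51.9 CPM in MMTV-cre;Ctsd-/- tumors (-2.04, SE 0.308, adjusted p = 0.163). In both genes the groups lay far apart and no replicate of either genotype stood out. Netrin 4 (Ntn4), a basement membrane protein, fell by 1.52 (SE 0.358), the acyl-CoA thioesterase gene Them5 by 2.00 (SE 0.516), the p53 target gene Trp53inp1 by 1.25 (SE 0.312), placental growth factor (Pgf), a ligand of the VEGF family, by 1.18 (SE 0.309), Igfbp2 by 1.11 (SE 0.358) and the alarmin gene Il33 by 1.06 (SE 0.296). The genotypes did not overlap in any of them, and for Il33 the nearest values were 32.3 and 32.5 CPM.

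Genes were next compared between genotypes with the white adipocyte level of each tumor in the model, which asks what remains at equal fat signal. Because this level itself separated the genotypes, the model can remove differences of genotype as well. The level is the mean log2 CPM of the white adipocyte list, so that list is brought near 0 by construction. The numbers called fell to 629 higher and 538 lower, and 413 of the genes called were also called without it. Of the 34 blood endothelial genes 0 were then higher and 3 lower, of the 16 basal genes 0 were higher and 4 lower, and of the 16 fatty acid synthesis genes 1 was higher. Fasn was 1.04 and no longer called, and the median of the fatty acid synthesis list was 0.40. In the mucosal list 6 genes were lower and 4 higher, with a median of -0.77. Agr2 (-5.37), Tspan8 (-2.92), Atp2a3 (-1.74), Scgb2b27 (-2.91), Ncr1 (-1.78), Pdpn (-0.79) and Ucp1 (5.72) were still called in their direction. Gzma (-1.50), Gzmb (-1.21), Prf1 (-1.92), Ccl21a (-2.99) and Bpifa1 (-0.77) were no longer called, and the number of T and NK cell genes lower went from 4 to 1.

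**Figure D5:**
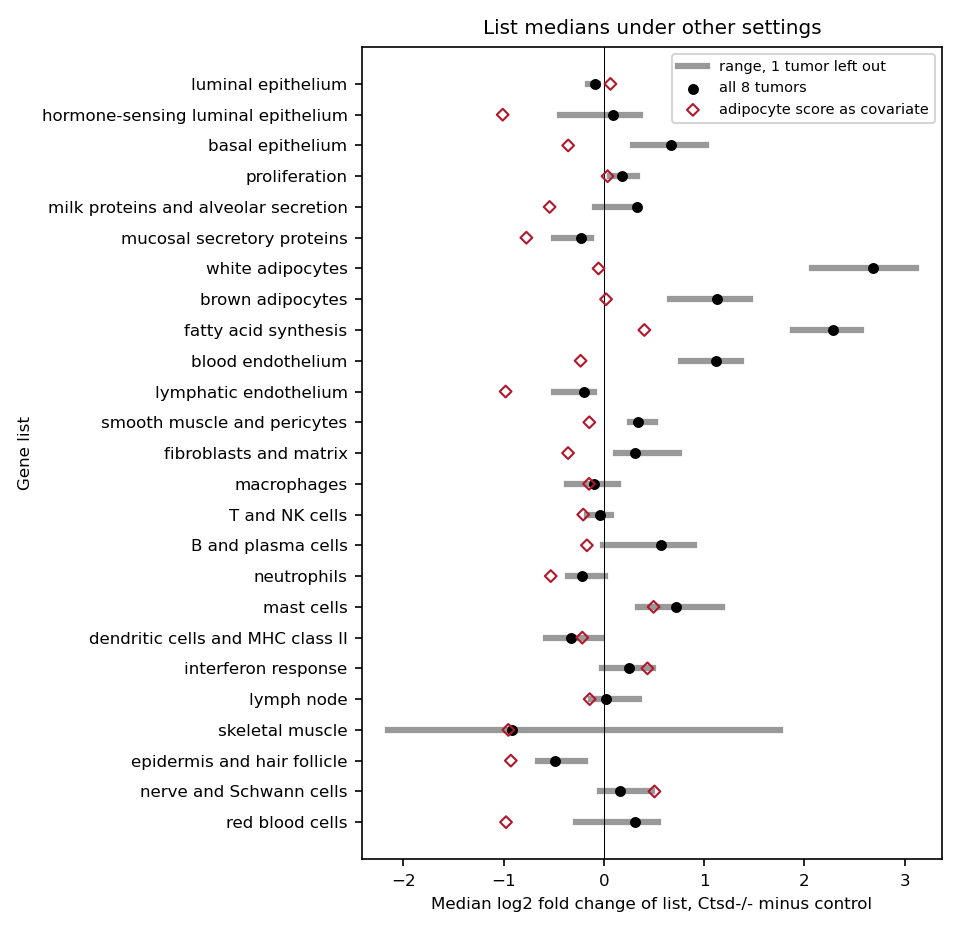
Median log2 fold change of each gene list (x axis, MMTV-cre;Ctsd-/- minus control) with all 8 tumors (black), over the 8 fits that leave out 1 tumor (grey bar from lowest to highest) and with the white adipocyte level as a covariate (red diamond). With the covariate the medians of brown adipocytes, blood endothelium and basal epithelium lie at or below 0.021, and that of mucosal secretory proteins is -0.77. The white adipocyte median lies near 0 by construction, because these genes make up the covariate.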

How the data were processed

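RNA of snap-frozen tumors was sequenced (total RNA, Illumina). The authors trimmed the reads, mapped them with STAR to GRCm38 (mm10 per the labels) and deposited raw counts per Ensembl gene, without normalization. The annotation release is not given in the sources used here; 45143 of 45706 identifiers were found in GENCODE M21, which gave symbols. The counting left out reads with several positions or overlapping several genes. Between 52.8% and 53.7% of strand-assigned reads lay on the opposite strand, so the column regardless of strand was used, in which a gene and an antisense partner cannot be told apart. Replicates differed well beyond sampling noise (chi-square of at least 122.2 per gene). The methods give 4 mice per genotype as biological replicates; p-values measure the spread between these tumors.

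The analysis used edgeR 4.0.16 (R 4.3.3): filterByExpr, TMM scaling, and the two-sided quasi-likelihood test on the 8 tumors without covariates, adjusted by Benjamini-Hochberg across the tested genes. The study itself used limma. CPM values are TMM-scaled. List levels are means of log2 CPM (prior count 2) over tested members and carry no test. Members and lists were chosen with earlier results of these data known. Genes named are Ctsd, the first 3 members of each list, up to 5 further called members per list with the largest absolute log2 FC, the 15 highest and 15 lowest called protein-coding genes without overlap at 10 CPM or more, and the 10 with the lowest p; other members were named after their values were seen, and not all that the rule names are printed. Alternatives were limma 3.58.1 (voom), DESeq2 1.42.0, 2 other scalings, 2 filters, a replicate block, the white adipocyte covariate and leaving out each tumor; leaving out both tumors with skeletal muscle genes was chosen after seeing the data. The tests were first tested on simulated data. Replicate numbers do not pair tumors: after removing group means, same-numbered tumors had correlations of -0.30 to -0.0075. Promoters are RefSeq sequences of GRCm38.p6. In the smallest library 3 counts, the floor used for lower bounds, correspond to 0.0761 TMM-scaled CPM; this covers counting error only. Results for some genes are not reported here.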

Additional observations from a re-analysis of the deposited data

Results flagged for a closer look

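In 382 groups of 4 tumors (list levels and log2 CPM of named genes by genotype), 8 had a sample set apart from the others by more than Dixon's 95% critical value; about 1 in 20 groups is set apart in this way by chance. Control tumor 4 was highest for the skeletal muscle list (mean log2 CPM 4.66, next 0.052) and for its member Mylpf (log2 CPM 6.64, next 1.17), and MMTV-cre;Ctsd-/- tumor 1 was highest for Mylpf in its group (3.42, next 1.25). Control tumor 4 was also lowest for the nerve list (2.85, next 3.51) and for Ccl21a (2.15, next 4.86). Esr1 was highest in control tumor 1 (log2 CPM 4.70, next 3.54), Flt4 lowest in MMTV-cre;Ctsd-/- tumor 1 (-0.79, next 2.07) and Mmp9 lowest in control tumor 3 (-2.46, next 0.31).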

How the results depend on the processing

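The numbers called moved by more than 1.5 times under these settings: without a filter on low counts 2703 genes were higher and 2734 lower, with the white adipocyte covariate 629 and 538, and with the replicate block 711 were lower and 1105 higher (1644 of the 3112 calls shared). Leaving out 1 tumor gave 980 to 2156 higher and 827 to 2309 lower, with 980 higher and 827 lower without MMTV-cre;Ctsd-/- tumor 4, 899 lower without tumor 3 and 858 lower without control tumor 4. An adjusted p below 0.05 was reached by 1 gene in edgeR, 265 in DESeq2, 2 in limma-voom, 33 without a filter and 0 with at least 10 counts in every tumor (1467 at an unadjusted p below 0.05). Upper-quartile scaling shifted the median of all genes to -0.051 and called 1369 higher and 1850 lower (42.5% of the calls higher against 50.5%); the share was 60.8% with the replicate block and 62.8% without control tumor 4. The blocked counts of list members are lower for blood endothelium (11 higher), basal epithelium (1), fibroblasts (1), B and plasma cells (3), interferon response (4), mucosal secretory proteins (1), mast cells (1), pericytes and smooth muscle (2), nerve (2), fatty acid synthesis (10) and hormone-sensing epithelium, proliferation and dendritic cells (0 each); the blocked median of the muscle list was 0.32. With limma-voom 0 hormone-sensing, 2 basal, 4 B and plasma cell and 1 mucosal gene were higher, and with DESeq2 1 mucosal gene. Without both tumors with skeletal muscle genes 1972 genes were higher and 1647 lower, Mylpf was 0.18 and Acta1 2.503; the highest values below for Acta1, Ckm and Mylpf came without control tumor 4. List medians over fits leaving out 1 tumor ran from -0.50 to -0.13 for mucosal secretory proteins and from -2.15 to 1.76 for skeletal muscle.

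With the white adipocyte covariate list medians moved to 0.065 (luminal epithelium), -1.01 (hormone-sensing), -0.36 (basal), -0.54 (milk), -0.77 (mucosal), -0.054 (white adipocytes), 0.021 (brown adipocytes), 0.40 (fatty acid synthesis), -0.23 (blood endothelium) and -0.98 (red blood cells). Under it the log2 FC changed sign in Prlr (-0.27), Tbx3 (-0.67), Krt5 (-2.07), Krt14 (-1.87), Krt15 (-0.43), Krt17 (-1.47), Jag2 (-0.099), Lama3 (-0.39), Col17a1 (-0.35), Csn2 (-6.03), Adipoq (-0.029), Plin1 (-0.14), Lep (-0.084), Pck1 (-0.87), Ebf2 (-0.12), Acly (-0.15), Pecam1 (-0.25), Cldn5 (-0.12), Nos3 (-0.17), Ackr1 (-0.17), Cspg4 (-0.012), Ndufa4l2 (-0.048), Pdgfra (-0.37), Twist2 (-0.28), Dpt (-0.25), Prrx1 (-0.44), Cd79a (-0.19), Ighg2c (-0.98), Clec9a (-0.21), Cxcl9 (-0.047), Gbp4 (-0.21) and Pmp22 (-0.17). Of these genes, Krt5, Krt14 and Csn2 were called only with the covariate. The sign also changed in named genes called neither with nor without it, among them Kdr (-0.36), Esr1 (-1.20), Dcn (-0.79), Myh11 (-0.12) and Acta2 (-0.25). Over fits leaving out 1 tumor, Ighg2c ran from -0.34 (without MMTV-cre;Ctsd-/- tumor 3) to 2.34, Ckm from -5.44 to 3.68, Mylpf from -3.61 to 1.17 and Acta1 from -2.15 to 3.49. The white adipocyte median and its members Adipoq, Plin1, Lep and Pck1 moved by construction, since the covariate is built from this list. The cause of the other moves was not tested.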

Other observations

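Several genes with the lowest p-values belong to none of the lists. Ighv1-62, annotated as an immunoglobulin heavy chain variable pseudogene, had 0 counts in all 4 control tumors and 1.38, 1.69, 0.884 and 1.29 CPM in MMTV-cre;Ctsd-/- tumors 1 to 4, at least 17.3-fold higher against a floor of 3 counts in the smallest control (adjusted p = 0.0679). Its level did not follow Igkc, which was highest in MMTV-cre;Ctsd-/- tumor 3, where Ighv1-62 was lowest; variable genes are near-identical copies, so its reads are uncertain. Crb1, a polarity gene, had 0 to 0.121 CPM in controls and 4.18, 3.43, 1.59 and 1.59 CPM in MMTV-cre;Ctsd-/- tumors (log2 FC 5.81, SE 0.814, adjusted p = 0.163). Mc5r, a melanocortin receptor gene, had at most 3 counts in any control and 0.492 to 3.15 CPM in MMTV-cre;Ctsd-/- tumors, at least 21.3-fold higher against the same floor. Trhde, an enzyme that degrades thyrotropin-releasing hormone, had 0 to 0.0995 CPM in controls and 1.08, 0.692, 2.26 and 1.48 CPM in MMTV-cre;Ctsd-/- tumors (4.63, SE 0.787, adjusted p = 0.291). In these 4 genes all MMTV-cre;Ctsd-/- tumors lay above all controls, and replicates 3 and 4 were not both the highest in Ighv1-62 and Crb1.

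Rps24-ps3, a ribosomal protein pseudogene on chromosome X, had 98.6, 114, 32.9 and 45.5 CPM in control tumors and 14.8, 8.66, 7.70 and 8.36 CPM in MMTV-cre;Ctsd-/- tumors (-2.88, SE 0.423, adjusted p = 0.163); reads shared with its parent gene make the value uncertain. The uncharacterized gene 4930469K13Rik fell by 2.10 (SE 0.329, adjusted p = 0.193), with 3.95 to 6.35 CPM in controls and 0.953 to 1.64 CPM in MMTV-cre;Ctsd-/- tumors. Rgr, an opsin-family gene, had 23.6, 8.77, 5.67 and 4.95 CPM in controls and 1.78, 2.71, 3.49 and 0.846 CPM in MMTV-cre;Ctsd-/- tumors (-2.28, SE 0.588).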
